A study of Mus musculus with 4 samples.

Results

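The glutathione transferases, glutathione peroxidases and peroxiredoxins were examined in isolated mouse pancreatic islets treated with GKA, a glucokinase activator. All genes on the array whose name begins with Gsta, Gstk, Gstm, Gsto, Gstp, Gstt, Gstz, Mgst, Gpx or Prdx followed by a number were taken, which gave 40 of 26265 named genes and 57 of 33697 named probes. The islets came from 8-week-old C57BL/6 mice, with no allele stated for either group, and spent 24 h in RPMI1640 medium with 5.6 mM glucose. The vehicle group (2 samples) received DMSO and the GKA group (2 samples) received 30 µM GKA. Labelled RNA of each sample was hybridised to 1 Agilent array with 1 dye, Cy3. Islets are mixed tissue, and nothing in the labels ties the 2 samples of 1 group to separate mice or cultures. The p-values therefore measure the spread between samples alone, and that spread may be technical.

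Glutathione transferases join the tripeptide glutathione to electrophilic compounds, which makes these soluble and ready for export from the cell. Glutathione peroxidases use glutathione to reduce hydrogen peroxide and lipid peroxides, and most peroxiredoxins do the same with electrons from thioredoxin. Beta cells, the insulin-secreting cells of the islet, are known for low levels of catalase and of glutathione peroxidase compared with liver.

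Signals are given as the log2 of the processed intensity minus the log2 of that array's 75th percentile, so 0 is the 75th percentile and a difference of 1 is 2-fold. A gene is represented by its brightest probe, and levels are compared between arrays for 1 probe at a time, never between genes. Of the 40 genes, 33 were tested, because a probe stood well above background on the 2 arrays of 1 group or of both, and 32 of them had such a signal on all 4 arrays. The exception was Gsta4, which was not well above background with vehicle. The other 7 genes, among them Gsta1, Gsta2, Gstt4, Mgst2, Gpx5 and Gpx6, were not well above background on any array and were not tested.

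The classes moved in different directions (the plot of all 33 genes by array). Among the 33 tested genes, 7 rose and 8 fell with GKA at an adjusted p under 0.05 in limma, and 18 did not pass. That is 45.5% of the genes, beside 17.1% of all 17178 tested genes. The share that rose was 21.2%, beside 9.11% of all genes, and the share that fell was 24.2%, beside 8.01%. The genes that rose were the pi-class Gstp1 and Gstp2, the alpha-class Gsta3 and Gsta4, the membrane-bound Mgst1, Gpx2 and Prdx5. The genes that fell were 4 of the 7 mu-class genes (Gstm1, Gstm3, Gstm4 and Gstm6), Gstt1, Gsto1, Gstk1 and Gpx1. Gsta4 entered the test through its GKA signal alone, which favours a rise. With only probes well above background on every array, 6 of 32 genes rose and 8 fell. That was 43.8%, beside 20.3% of all genes tested in this way. The median log2 fold change was 0.01 over the 33 genes and -0.01 over all genes, while the median of its absolute size was 0.45 against 0.26. The fitted change was at least 2-fold in 8 of the 33 genes, or 24.2%, against 6.29% of all genes, and the 8 include Gsta4, for which the signal gives only a bound of 1.83-fold. Vehicle and GKA arrays did not overlap in 27 of the 33 genes, or 81.8%, beside 65.9% of all genes. Of these 27 genes, 13 were higher (32.4% of all genes were) and 14 lower (33.5% of all genes were) with GKA. With GKA replicate 1 left out, 0 genes passed as higher and 1 as lower (Gsto1), and with GKA replicate 2 left out, 2 passed as higher (Gsta4 and Gstp1) and 0 as lower. Each of these fits leaves 1 GKA array, and far fewer of all genes passed in them as well. Without GKA replicate 1, the share of the 33 genes that passed was no higher than that of all genes. The median log2 fold change of the 33 genes was -0.06 without GKA replicate 1 and 0.08 without GKA replicate 2.

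**Figure D1:**
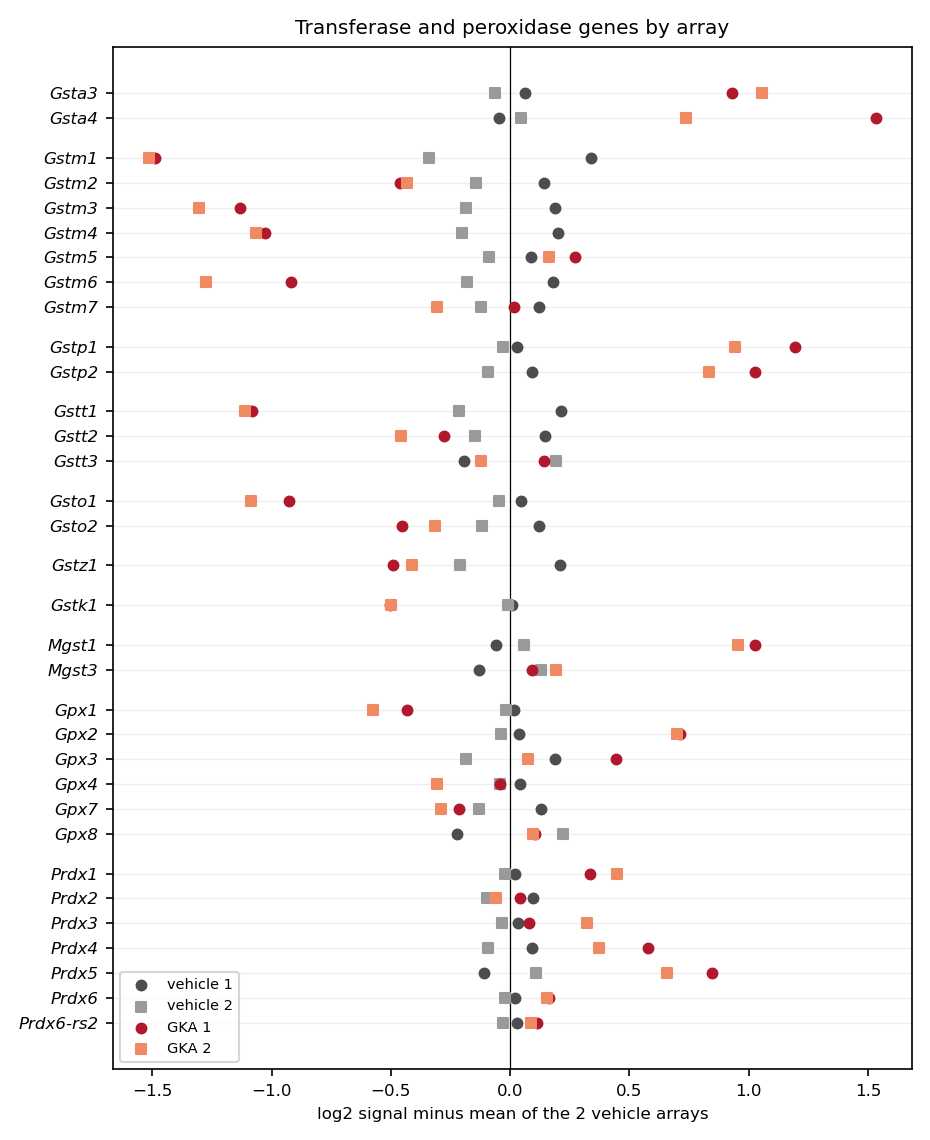
Each row is 1 of the 33 tested genes, grouped by class, and each point is 1 array: the horizontal axis gives its log2 signal minus the mean of the 2 vehicle arrays, with vehicle in grey and GKA in red and orange. Gsta3, Gstp1, Gstp2 and Mgst1 lie near 1 on both GKA arrays, while Gstm1, Gstm3, Gstm4, Gstm6, Gstt1 and Gsto1 lie near -1 or below; Gsta4 was not well above background on the vehicle arrays.

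Directions are relative to the 75th percentile of each array, an intensity of 751 and 755 for vehicle and of 557 and 598 for GKA. With no scaling, the median log2 fold change of all genes was -0.40, and 4 of the 33 genes passed as higher against 16 as lower. With the E1A spike-in spots, RNA added in known amounts, set equal between arrays, that median was -0.56. Here 0 genes passed as higher against 15 as lower (1 and 17 at an unadjusted p under 0.05 in limma). The share that passed was 60.6% of the families and 48.9% of all genes with no scaling, and 45.5% and 46.9% with spike-ins. The spike-in fit gave all 33 genes the same SE, 0.27, against a median of 0.14 with the 75th percentile. A gene that rose could thus lose its pass there through the larger SE as well as through the lower fold change. The 8 genes that fell passed in both of these scalings. Gstm2, Gstm7, Gstt2, Gsto2, Gstz1, Gpx4 and Gpx7, which did not pass with the 75th percentile, passed as lower in both, and Prdx2 did with no scaling. The 7 genes that rose kept a positive sign in both (the plot of 3 scalings). Their changes were smaller there than with the 75th percentile, which sets them against the bulk of the genes. With no scaling Gsta3, Gstp1, Gstp2 and Mgst1 still passed, and Gsta4, Gpx2 and Prdx5 did not.

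**Figure D2:**
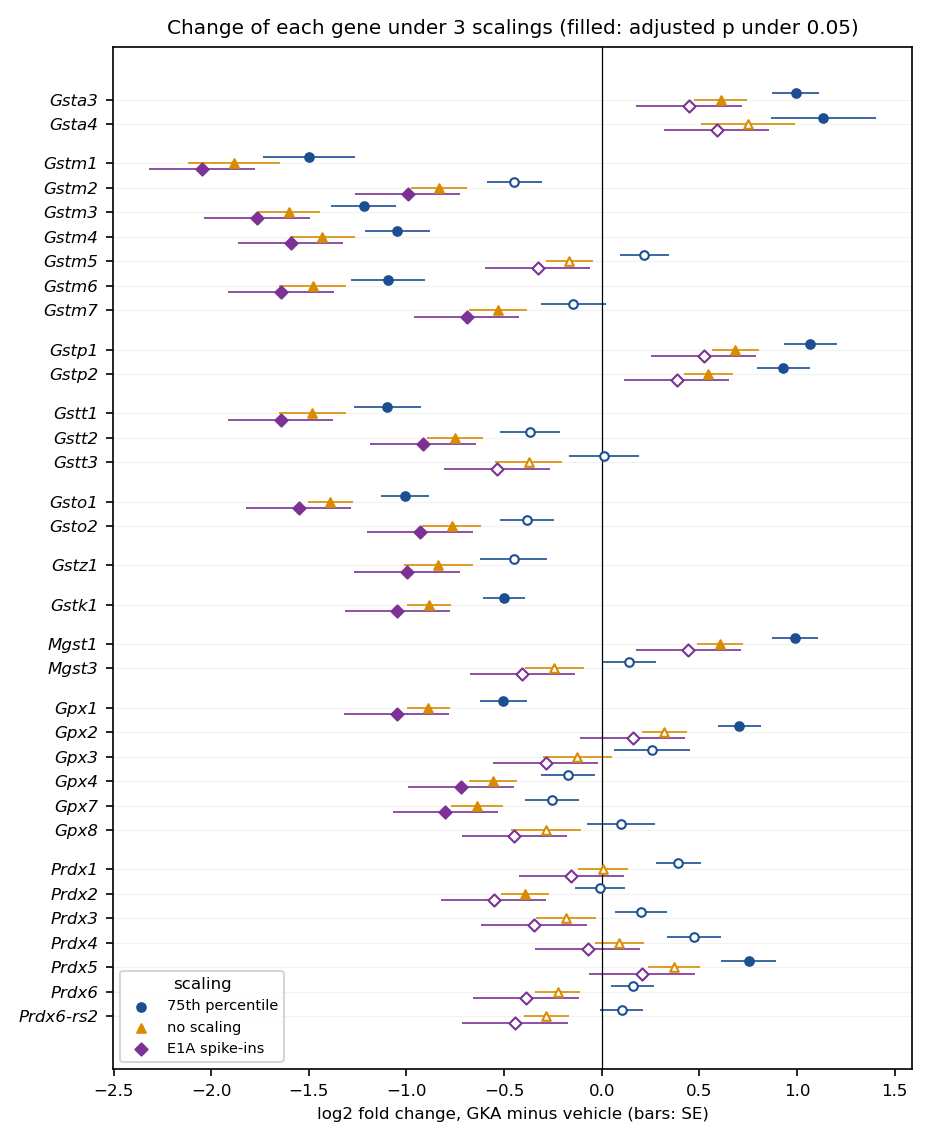
The log2 fold change of each of the 33 genes (horizontal axis, GKA minus vehicle, with its SE) is shown under the 75th percentile (circles), no scaling (triangles) and E1A spike-ins (diamonds), with filled marks for an adjusted p under 0.05. The whole set shifts left by 0.38 without scaling and by 0.55 with spike-ins, which takes Prdx1 and Prdx4, for example, below 0 with spike-ins while Gstm1 stays lowest.

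Of the 2 tested genes of the alpha class, Gsta3 rose, and Gsta4 passed as higher after entering the test through its GKA signal. Gsta3, an alpha-class transferase that in the mouse detoxifies the aflatoxin epoxide, had a log2 signal of -3.04 and -3.16 with vehicle and of -2.17 and -2.05 with GKA. Both GKA arrays lay above both vehicle arrays. Its log2 fold change was 0.99 ± 0.12 (SE; adjusted p = 0.0121), and its other probe gave 0.88 ± 0.11. Gsta4, which conjugates the lipid peroxidation product hydroxynonenal, was at -6.24 and -6.15 with vehicle, where it was not well above background, and at -4.67 and -5.46 with GKA. The fitted log2 fold change was 1.14 ± 0.27 (adjusted p = 0.0449 in limma), and that test uses these dim vehicle values. Under this background and scaling, the mean level with GKA was at least 1.83-fold higher, a log2 of 0.87. This bound is set against the dimmest probes that were well above background on the vehicle arrays. It does not carry over to normexp background with the 75th percentile, where the fitted log2 fold change was 0.47. The p-value does not test this bound. Gsta4 was kept for testing through its GKA signal alone. Its signal of -5.46 on GKA replicate 2 was that array's lowest to count as well above background. Gsta1 and Gsta2, the other alpha-class genes, were not well above background on any array. Gsta3 was at 1.06 (adjusted p = 0.0507) without GKA replicate 1 and at 0.93 (adjusted p = 0.0633) without GKA replicate 2. Gsta4 did not pass without vehicle replicate 1 (adjusted p = 0.091), vehicle replicate 2 (0.059) or GKA replicate 1 (0.0827). In all, Gsta4 did not pass in 10 of 15 alternatives, and its log2 fold change was lowest, at 0.16 (adjusted p = 0.273), with normexp background and quantile scaling.

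The mu class, with 7 genes the largest of the transferase classes, changed unevenly. Gstm1, the main mu-class transferase of mouse liver, had a log2 signal of 4.43 and 3.75 with vehicle and of 2.61 and 2.58 with GKA. The vehicle arrays differed from each other by more than the GKA arrays did, yet both stood above both GKA arrays. The log2 fold change of Gstm1 was -1.50 ± 0.24 (adjusted p = 0.0188), the largest fall of the 33 genes, and its other probe gave -1.42 ± 0.18. Gstm3 stood at 1.53 and 1.16 with vehicle and at 0.21 and 0.04 with GKA, a log2 fold change of -1.22 ± 0.17 (adjusted p = 0.0142). Gstm4 stood at 1.14 and 0.74 with vehicle and at -0.09 and -0.12 with GKA, a log2 fold change of -1.05 ± 0.17 (adjusted p = 0.0189). Both are mu-class transferases like Gstm1, and for each the groups did not overlap. Gstm6 stood at -2.73 and -3.09 with vehicle and at -3.82 and -4.18 with GKA, a log2 fold change of -1.10 ± 0.19 (adjusted p = 0.0236).

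The other 3 mu-class genes did not pass. Gstm2 stood at 2.61 and 2.33 with vehicle and at 2.01 and 2.04 with GKA, so the groups did not overlap, at a log2 difference of -0.45 ± 0.14 (adjusted p = 0.0849; 95% interval -0.80 to -0.09). Gstm7 differed by -0.14 ± 0.17 (adjusted p = 0.569), with overlapping groups. Gstm5, the mu-class gene expressed in brain and testis, stood at 1.24 and 1.06 with vehicle and at 1.42 and 1.31 with GKA, a log2 difference of 0.22 ± 0.13 (adjusted p = 0.274; 95% interval -0.10 to 0.54). It was the single mu-class gene whose GKA arrays both lay above the vehicle arrays, and without scaling its difference was -0.17. For the 4 mu-class genes that fell, log2 fold changes without GKA replicate 1 ran from -1.51 to -1.06, with adjusted p from 0.056 to 0.0786. Without GKA replicate 2 they ran from -1.49 to -0.92, with adjusted p from 0.0721 to 0.0956.

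The 7 mu-class genes are neighbours on mouse chromosome 3. Their probes span chr3:107701101-107846847 on build mm9, or 146 kb, in the order Gstm5, Gstm7, Gstm6, Gstm3, Gstm2, Gstm1 and Gstm4. Along this order the log2 fold changes were 0.22, -0.14, -1.10, -1.22, -0.45, -1.50 and -1.05. The 2 genes at the low-coordinate end were thus those with the smallest differences, and Gstm2 lay between genes that fell. The brightest Gstm1 probe, which gave the -1.50, is placed on chromosome 5 (chr5:117082490-117082549) in the deposited annotation, away from the gene. The other Gstm1 probe, which gave -1.42, lies within the cluster at chr3:107815595-107815654.

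Several probes of 1 gene did not always give 1 value, which the plot of genes with several probes shows. Of the 57 probes, 49 passed the filter on dim probes, and 11 passed the test as higher and 10 as lower, beside 3749 of 22139 probes in the same fit. In 12 of the 13 genes with several such probes, all probes had 1 sign. Gstm3 was the exception. Its brighter probe at chr3:107769290-107770549, which fell by 1.22, stands against a dimmer one at chr3:107766615-107766674 that read -4.36 and -4.97 with vehicle and -4.33 and -4.14 with GKA, a log2 difference of 0.43 ± 0.22 (adjusted p over probes = 0.226). With the mean of its probes in place of the brightest, Gstm3 was at -0.40 (adjusted p = 0.19) and did not pass. The brighter Gstm4 probe at chr3:107846495-107846847 fell by 1.05, and the dimmer one at chr3:107843802-107843861 differed by -0.30 ± 0.14 (adjusted p over probes = 0.18). The 3 Gstm6 probes gave -1.10, -0.76 (adjusted p over probes = 0.0558) and, where it was not well above background with GKA, a fall of at least 1.43-fold. Mu-class genes are close relatives, and a probe that also binds a neighbour's RNA cannot be told apart here from one that does not, since probe sequences were not used here.

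**Figure D3:**
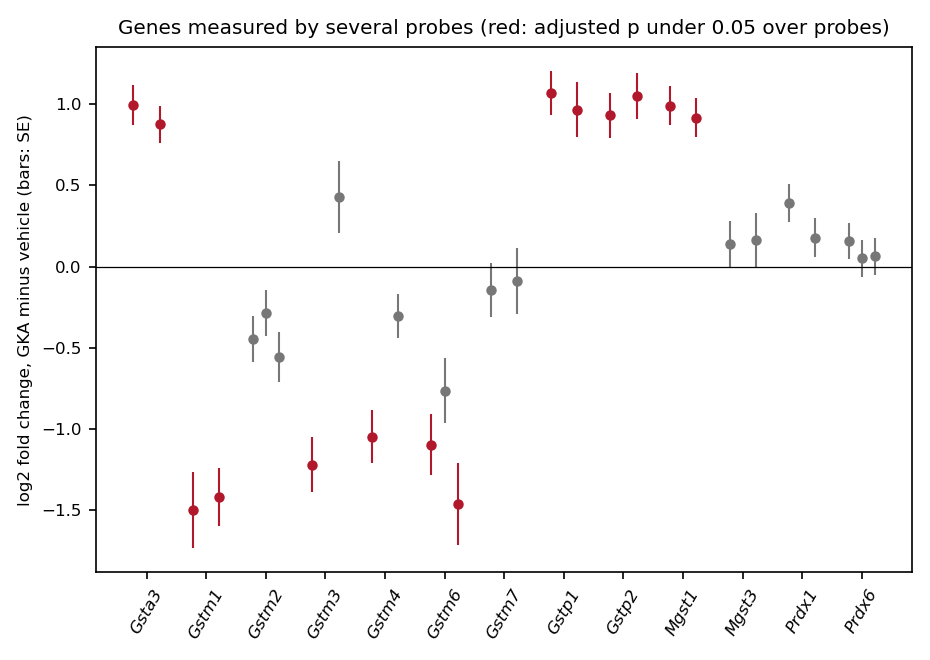
Each point is the log2 fold change of 1 probe (vertical axis, GKA minus vehicle, with its SE) for the 13 genes with several probes that passed the dim filter, ordered within a gene from bright to dim. Red points passed at an adjusted p under 0.05 over probes. The probes of Gsta3, Gstp1, Gstp2 and Mgst1 lie together near 1, whereas those of Gstm3 lie at -1.22 and 0.43.

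Both pi-class genes taken here rose. These 2 genes are neighbours on chromosome 19 and encode cytosolic transferases that also bind signalling kinases. Gstp1 had a log2 signal of 3.66 and 3.60 with vehicle and of 4.82 and 4.57 with GKA, a log2 fold change of 1.07 ± 0.13 (adjusted p = 0.0124). Gstp2 had 6.30 and 6.12 with vehicle and 7.24 and 7.04 with GKA, a log2 fold change of 0.93 ± 0.14 (adjusted p = 0.0164). In both genes the 2 GKA arrays lay above the 2 vehicle arrays by more than the replicates differed from each other. The second probes gave 0.97 ± 0.17 for Gstp1 and 1.05 ± 0.14 for Gstp2, and the 4 probes lie between chr19:4035908-4036723 and chr19:4040983-4041042 on mm9. Whether a probe of one also binds RNA of the other was not tested. Without GKA replicate 1, Gstp1 was at 0.94 (adjusted p = 0.0572) and Gstp2 at 0.83 (adjusted p = 0.076), and without GKA replicate 2, Gstp1 was at 1.19 (adjusted p = 0.0418) and Gstp2 at 1.03 (adjusted p = 0.0601).

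The promoters of the 2 pi-class genes are printed because these genes moved together. The windows, from RefSeq on GRCm38.p6, run from 250 bases to 1 base before the start site, 5′ to 3′ on the minus strand, at chr19:4037913-4038162 for Gstp1 and chr19:4042222-4042471 for Gstp2. Capitals mark a match to TGAGTCA, the AP-1 motif, which begins at base -74 in Gstp1 and at base -89 in Gstp2, counted from the start site.
Gstp1: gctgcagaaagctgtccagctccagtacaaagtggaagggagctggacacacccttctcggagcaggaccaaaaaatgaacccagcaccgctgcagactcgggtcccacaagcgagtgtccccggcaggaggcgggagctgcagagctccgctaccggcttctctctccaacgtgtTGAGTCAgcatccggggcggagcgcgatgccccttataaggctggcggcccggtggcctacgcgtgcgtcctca
Gstp2: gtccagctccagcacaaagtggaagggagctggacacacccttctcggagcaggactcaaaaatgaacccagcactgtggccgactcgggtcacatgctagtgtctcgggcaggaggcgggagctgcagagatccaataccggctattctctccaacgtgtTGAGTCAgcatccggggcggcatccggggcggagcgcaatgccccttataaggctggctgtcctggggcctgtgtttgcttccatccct
Over the full windows, which add 50 bases after the start, 77.1% of 319 aligned positions were identical between Gstp1 and Gstp2.

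The theta, omega and kappa classes each held 1 gene that fell. Gstt1, a theta-class transferase that acts on small halogenated compounds, had a log2 signal of 4.16 and 3.73 with vehicle and of 2.87 and 2.84 with GKA. Its log2 fold change was -1.10 ± 0.17 (adjusted p = 0.0186). Gsto1, an omega-class enzyme that reduces dehydroascorbate and thiol adducts, had 4.27 and 4.18 with vehicle and 3.30 and 3.14 with GKA. Its log2 fold change was -1.01 ± 0.12 (adjusted p = 0.012). Gstk1, the transferase of mitochondria and peroxisomes, had 0.59 and 0.57 with vehicle and 0.08 on both GKA arrays, a log2 fold change of -0.50 ± 0.11 (adjusted p = 0.0388). In all 3 genes both GKA arrays lay below both vehicle arrays. With GKA replicate 1 left out, Gstt1 was at -1.11 (adjusted p = 0.0767), and with GKA replicate 2 left out at -1.08 (adjusted p = 0.0846). Gsto1 was at -0.93 (adjusted p = 0.062) with GKA replicate 2 left out. Gstk1 did not pass when any 1 of the 4 arrays was left out, with adjusted p from 0.0791 to 0.149.

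The relatives of these genes and the zeta class did not pass with the 75th percentile. Gstt2, a theta-class gene on chromosome 10 like Gstt1, stood at 0.15 and -0.14 with vehicle and at -0.27 and -0.45 with GKA (log2 difference -0.37 ± 0.15, adjusted p = 0.15). Gstt3 is a further theta-class gene there, and its groups overlapped, with a log2 difference of 0.01 ± 0.18 (adjusted p = 0.973; 95% interval -0.44 to 0.47). Gsto2, the second omega-class gene, stood at 0.25 and 0.01 with vehicle and at -0.32 and -0.19 with GKA (log2 difference -0.38 ± 0.14, adjusted p = 0.114). Gstz1 isomerises maleylacetoacetate in the breakdown of tyrosine. It stood at 3.53 and 3.11 with vehicle and at 2.82 and 2.91 with GKA (log2 difference -0.45 ± 0.17, adjusted p = 0.126). In Gstt2, Gsto2 and Gstz1 both GKA arrays were below both vehicle arrays, and these 3 passed as lower with no scaling (adjusted p = 0.0131, 0.014 and 0.0169) and with spike-ins.

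Of the membrane-bound transferases, Mgst1 rose. Mgst1, a trimeric enzyme of the endoplasmic reticulum and the outer mitochondrial membrane that also reduces lipid peroxides, had a log2 signal of -3.49 and -3.38 with vehicle. With GKA it had -2.41 and -2.48, above both vehicle arrays. The log2 fold change was 0.99 ± 0.12 (adjusted p = 0.0113), and the other probe gave 0.92 ± 0.12. Mgst3, a relative of leukotriene C4 synthase, stood at 0.35 and 0.62 with vehicle and at 0.58 and 0.68 with GKA. The groups of Mgst3 overlapped (log2 difference 0.14 ± 0.14, adjusted p = 0.51), and Mgst2 was not well above background. Mgst1 was at 0.95 (adjusted p = 0.0579) without GKA replicate 1 and at 1.03 (adjusted p = 0.0556) without GKA replicate 2.

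Promoter windows of 300 bases were found for 35 of the 40 genes, 47 windows in all, and were searched on both strands for TGACNNNGC, the core of the antioxidant response element that NRF2 binds. A match was in 5 of the 47 windows, or 10.6%, and in 12.4% of all 32851 windows. It was in the windows of Gsta3 and Mgst1, which rose, of Gstm5, Gstm7 and Prdx1, which did not pass, and in 0 of the 12 windows of the genes that fell. GCGTG, the core bound by the aryl hydrocarbon receptor, was in 31.9% of the 47 windows and in 32.4% of all. TGAGTCA, searched after the windows had been read, was in 10.6% of the 47 and in 5.2% of all: Gstp1, Gstp2, Gstm5, Mgst2 and Prdx1. Stretches around the TGACNNNGC match, in capitals, are shown for 2 genes that rose and 2 that did not pass, to set their matches side by side. They are given 5′ to 3′ on the plus strand of GRCm38.p6, at chr1:21240434-21240502 for Gsta3, chr6:138140441-138140509 for Mgst1, chr4:116685436-116685504 for Prdx1 and chr3:107895782-107895850 for Gstm5.
Gsta3: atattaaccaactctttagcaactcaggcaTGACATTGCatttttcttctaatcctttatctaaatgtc
Mgst1: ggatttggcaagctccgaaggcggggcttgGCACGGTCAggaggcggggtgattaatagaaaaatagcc
Prdx1: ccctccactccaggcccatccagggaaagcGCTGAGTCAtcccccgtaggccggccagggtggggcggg
Gstm5: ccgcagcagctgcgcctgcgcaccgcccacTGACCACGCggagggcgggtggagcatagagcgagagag
The match lies on the printed strand in Gsta3 and Gstm5 and on the opposite strand in Mgst1 and Prdx1. It begins at base -121 from the start site in Gsta3, -56 in Mgst1, -133 in Prdx1 and -42 in Gstm5, and in Prdx1 a TGAGTCA match overlaps it. The same letters were thus present in promoters of genes that rose and of genes that did not pass.

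The glutathione peroxidases were measured in 6 of 8 genes, of which 1 rose, 1 fell and 4 did not pass. The 2 genes that passed are 33.3% of the 6, beside 17.1% of all genes. Gpx1, the selenium enzyme of the cytosol and mitochondria, had a log2 signal of 4.37 and 4.34 with vehicle and of 3.92 and 3.78 with GKA. Its log2 fold change was -0.50 ± 0.12 (adjusted p = 0.0448). Gpx2, the selenium enzyme of gastrointestinal epithelium, went the other way, with 4.74 and 4.67 with vehicle and 5.41 and 5.40 with GKA. Its log2 fold change was 0.71 ± 0.11 (adjusted p = 0.0191). The groups of both genes did not overlap. Gpx4, which reduces phospholipid peroxides and guards against ferroptosis, stood at 5.56 and 5.48 with vehicle and at 5.48 and 5.21 with GKA (log2 difference -0.17 ± 0.14, adjusted p = 0.414). Gpx3, the secreted plasma enzyme, differed by 0.26 ± 0.19 (adjusted p = 0.386), with overlapping groups. Gpx7 and Gpx8, enzymes of the endoplasmic reticulum that lack selenium, differed by -0.25 ± 0.14 (adjusted p = 0.244) and 0.10 ± 0.18 (adjusted p = 0.717). Gpx1 did not pass without any of the 4 arrays in turn (log2 fold change -0.58 to -0.43, adjusted p from 0.0846 to 0.19). With GKA replicate 1 left out, Gpx2 was at 0.70 (adjusted p = 0.0887), and with GKA replicate 2 left out at 0.71 (adjusted p = 0.0907).

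Among the peroxiredoxins 1 of 7 tested genes rose, or 14.3%, beside 9.11% of all genes. This was Prdx5, a peroxidase of mitochondria, peroxisomes and cytosol, with a log2 signal of 3.32 and 3.54 with vehicle and of 4.28 and 4.09 with GKA. Its log2 fold change was 0.75 ± 0.14 (adjusted p = 0.0273). Prdx4, the peroxiredoxin of the endoplasmic reticulum, stood at 1.48 and 1.30 with vehicle and at 1.97 and 1.76 with GKA (log2 difference 0.47 ± 0.14, adjusted p = 0.0719). Prdx1, an abundant cytosolic peroxiredoxin, stood at 4.03 and 3.99 with vehicle and at 4.34 and 4.45 with GKA (log2 difference 0.39 ± 0.12, adjusted p = 0.0744). Neither passed, though both GKA arrays lay above both vehicle arrays. Spike-in scaling put the 2 differences at -0.07 for Prdx4 and -0.15 for Prdx1. Prdx3, the mitochondrial form, differed by 0.20 ± 0.13 (adjusted p = 0.336). Prdx6, which also has phospholipase activity, differed by 0.16 ± 0.11 (adjusted p = 0.354), and its related sequence Prdx6-rs2, now named as the pseudogene Prdx6-ps2, by 0.10 ± 0.11 (adjusted p = 0.551). In all 3 both GKA arrays again lay above both vehicle arrays, as they did in 32.4% of all genes. With no scaling and with spike-ins, all 3 differences were negative. Prdx2, the cytosolic form abundant in red blood cells, overlapped between groups at -0.01 ± 0.13 (adjusted p = 0.975; 95% interval -0.33 to 0.32). Prdx5 was at 0.64 (adjusted p = 0.0699) with vehicle replicate 1 left out, at 0.66 (adjusted p = 0.114) with GKA replicate 1 left out and at 0.85 (adjusted p = 0.0828) with GKA replicate 2 left out.

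Genes that supply or share the glutathione and thioredoxin pathways were taken as lists (the plot of related lists). Beside the counts of these lists, 9.11% of all tested genes rose and 8.01% fell. In synthesis and recycling of glutathione, 6 of 21 tested genes rose, 2 fell and 13 did not pass, with a median log2 fold change of 0.23. The rises were largest in Slc7a11, the cystine importer, at 2.13 ± 0.18 (adjusted p = 0.00518), which was well above background on 1 of the 2 vehicle arrays. Cth and Cbs, which make cysteine from homocysteine, rose by 2.05 ± 0.15 (adjusted p = 0.00417) and 1.78 ± 0.17 (adjusted p = 0.00638). Pgd, a source of NADPH in the pentose phosphate pathway, rose by 0.87 ± 0.13 (adjusted p = 0.0179). Gss, the glutathione synthetase, fell by 0.62 ± 0.13 (adjusted p = 0.0344), and Ggct, which breaks down gamma-glutamyl peptides, fell by 0.54 ± 0.12 (adjusted p = 0.0401). In the thioredoxin system 5 of 17 genes rose, 2 fell and 10 did not pass, with a median of 0.12. Srxn1, the sulfiredoxin that repairs over-oxidised peroxiredoxins, rose by 1.44 ± 0.12 (adjusted p = 0.0052). Txnrd1, the cytosolic thioredoxin reductase, rose by 0.82 ± 0.13 (adjusted p = 0.0189). Msrb3, a methionine sulfoxide reductase, rose by 0.67 ± 0.15 (adjusted p = 0.043), and Txnip, which binds and inhibits thioredoxin, by 2.49 ± 0.14 (adjusted p = 0.00341). Sesn2, a stress-induced sestrin, and Txnrd3, a thioredoxin reductase of testis, fell by 0.75 ± 0.14 (adjusted p = 0.0268) and 0.67 ± 0.11 (adjusted p = 0.0207). With each GKA array left out in turn, Slc7a11, Cth, Cbs, Txnip and Srxn1 still passed, and Pgd, Gss, Ggct, Txnrd1, Msrb3, Sesn2 and Txnrd3 did not (adjusted p from 0.0625 to 0.172). Pgd, Txnrd1 and Msrb3 also did not pass with spike-in scaling.

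Other lists were examined in the same way, beside the same 9.11% of all genes that rose and 8.01% that fell. Of 20 tested regulators and targets of NRF2 outside the families, 4 rose, 0 fell and 16 did not pass (median 0.11). At an unadjusted p under 0.05 in limma 6 were higher and 1 lower. Over all tested genes, 36.1% were higher or lower at that unadjusted p. The 4 were Hmox1 (heme oxygenase, 1.49 ± 0.28, adjusted p = 0.0268), Akr1b8 (an aldo-keto reductase, 1.01 ± 0.16, adjusted p = 0.0203), Nqo1 (a quinone reductase, 0.95 ± 0.22, adjusted p = 0.0418) and Osgin1 (an oxidative stress-induced growth inhibitor, 0.80 ± 0.15, adjusted p = 0.0257). Among transporters that export glutathione conjugates, Abcc4 rose by 0.77 ± 0.13 (adjusted p = 0.023), Abcc3 fell by 1.29 ± 0.21 (adjusted p = 0.02), and 3 did not pass. Among 11 genes of selenoprotein synthesis, Lrp8, a receptor for selenoprotein P, rose by 0.82 ± 0.11 (adjusted p = 0.0137), and 10 did not pass, with a median of -0.22. None of 5 superoxide dismutase and catalase genes passed, and none of 12 relatives with a transferase fold or a membrane-bound transferase fold did. At an unadjusted p under 0.05 in limma 1 of the 5 was higher, and 1 of the 12 was higher and 1 lower. Sod1 and Sod2, cytosolic and mitochondrial superoxide dismutases, differed by 0.00 ± 0.15 and -0.02 ± 0.11. Clic1, an ion channel, and Eef1g, a translation elongation factor, differed by -0.06 ± 0.12 and -0.14 ± 0.14. Of the 7 genes that changed here, Hmox1 and Abcc3 also passed with spike-in scaling and the other 5 did not. Each of the 7 failed to pass without at least 1 of the GKA arrays (adjusted p from 0.0601 to 0.127).

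**Figure D4:**
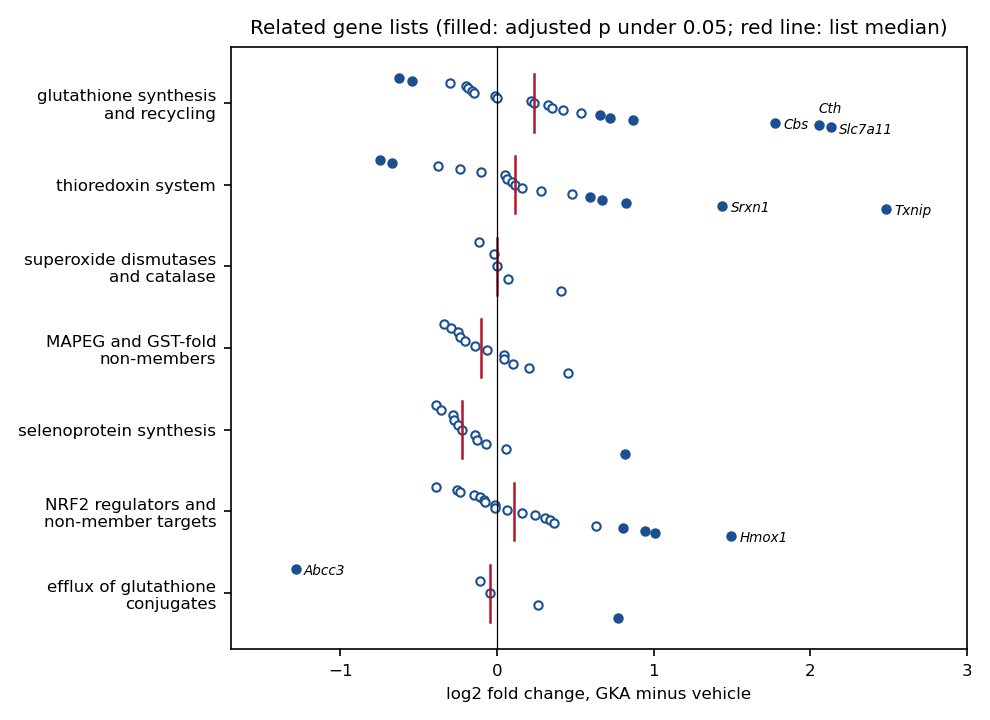
Each point is the log2 fold change (horizontal axis, GKA minus vehicle) of 1 tested gene outside the families, by list (MAPEG is the family of membrane-bound transferase relatives), with filled points for an adjusted p under 0.05 and a red line at the list median. Slc7a11, Cth, Cbs, Txnip, Srxn1 and Hmox1 stand to the right, and Abcc3 stands to the left.

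The arrays and markers of other cells gave the following context. All 4 arrays shared 1 slide and 1 scan, with vehicle at positions 1 and 2 and GKA at positions 3 and 4, and slide position and treatment cannot be told apart. Between 59.7% and 63.5% of probes were well above background. Vehicle replicate 2 lay below vehicle replicate 1 in all 8 genes that fell (median difference -0.37), in 27 of the 33 genes (81.8%) and in 57.5% of all genes. With vehicle replicate 1 left out, 6 of the 33 genes passed as lower and 5 as higher. Beta cell markers were present, and 3 of 10 rose and 0 fell in limma (6 and 0 at an unadjusted p under 0.05). Their summed levels, in units of the 75th percentile, were 1153 to 1163 with vehicle and 1420 to 1452 with GKA. Such sums depend on the scaling and weigh the brightest probes most, here Ins1, Ins2 and Iapp, which did not pass. Of 15 leukocyte markers, 6 were lower and 1 higher in limma (9 and 2 at an unadjusted p under 0.05), and 8 did not pass. Of all tested genes, 8.01% were lower and 9.11% higher, and 36.1% were lower or higher at an unadjusted p under 0.05 in limma. The summed level of the leukocyte markers was 17.8 to 18.0 with vehicle and 14.7 to 15.9 with GKA. The part of leukocytes and of the cell types below in the changes was not tested, and in bulk samples fewer cells of a type and less RNA per cell cannot be told apart. Of 12 acinar markers, 8 were not well above background on both arrays of any group, and the summed level of the other 4 was 0.593 to 0.595 with vehicle and 0.492 to 0.507 with GKA. Of 8 duct markers, Krt7 (-0.79 ± 0.14) and Cldn4 (-0.81 ± 0.15) fell and Spp1 rose (2.26 ± 0.29), and the summed level was 30.9 to 34.3 with vehicle and 30.3 to 36.4 with GKA. Of 9 fibroblast and stellate cell markers, Col1a2 fell and Thy1 rose, at summed levels of 7.32 to 9.02 with vehicle and 5.98 to 6.79 with GKA. Of 11 endothelial markers, Emcn fell and Cdh5 rose, at 18.5 to 18.8 and 17.9 to 19.4. Of 10 markers of the other islet endocrine cells Sst rose, at 1190.2 to 1201 and 1426 to 1503. Of 4 red blood cell markers 0 passed in limma (0 at an unadjusted p under 0.05), at 1.44 to 2.52 and 1.52 to 2.42.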

How the data were processed

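Processed intensities, background-subtracted and detrended spot signals on a linear scale, were deposited for each array; the file headers name Agilent Feature Extraction 10.7.3.1 and the submitters' processing notes version 9.1. The authors also deposited 1 intensity per group and a ratio for each probe. Their group intensities equalled the unscaled mean of the 2 arrays within 0.1 percent for all 39030 single-spot probes, so this table served for gene names and mm9 probe positions (its median ratio is 0.841, and 0.822 over the 57 probes described here).

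Control and outlier-marked spots were dropped, log2 intensities were scaled to each array's 75th percentile, and probes well above background on both arrays of 1 group were kept. Well above background means at least 0.5 of a probe's unmarked spots. Genes, by their brightest kept probe, were tested with limma 3.58.1 in R 4.3.3 (lmFit, eBayes), two-sided, and p-values were adjusted over all 17178 genes by the Benjamini-Hochberg method. Residual degrees of freedom were 2 and prior ones 3.33, and an exact permutation of 4 arrays could not go below p = 0.333. The scripts were tested on simulated data. The number of arrays limits the precision. No spot was saturated on any array.

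The families and lists were chosen with earlier results of these data known. Every gene of the families is counted, and some items are not reported here. From each list, up to 4 passing genes per direction by size of change were named, or the 2 with the highest signal where none passed. Alternatives were other backgrounds, scalings, filters, probe rules, moderation, a replicate block and leaving out each array. Normexp (offset 50) took the median spot signal, as no mean signal was used here. Promoter windows came from RefSeq, assembly GRCm38.p6, and were aligned with Biopython 1.88. No set test was run.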

Additional observations from a re-analysis of the deposited data

How the results depend on the processing

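None of the 15 genes of the families that passed changed sign under any of the 16 alternatives (15 for Gsta4). Counts of higher and lower genes stayed within 1.5 times of 7 and 8 except as follows. No scaling gave 4 higher and 16 lower (all genes 750 and 7654), spike-in scaling 0 and 15 (434 and 7624), and no filter on dim probes 0 and 0 (156 and 67; 10 and 9 of the families at an unadjusted p under 0.05 in limma). Each probe on its own gave 11 higher. Over all genes, normexp with the 75th percentile gave 2990 higher, normexp with quantile scaling 2067 lower and a variance trend 2094 lower. The replicate number as a block gave 1014 and 902 over all genes and 5 and 6 in the families, and Gpx1, Gsta4, Gstk1 and Prdx5 did not pass. The replicate numbers are not shown to pair the samples (correlation of replicate differences over genes 0.075). Without 1 array, higher counts ran from 0 to 6 and lower counts from 0 to 7 in the families, and from 315 to 1523 and from 206 to 1312 over all genes. The cause was not tested, apart from fewer samples. Genes that did not pass changed sign. With no scaling, the log2 difference was -0.12 for Gpx3, -0.28 for Gpx8, -0.17 for Gstm5, -0.37 for Gstt3, -0.24 for Mgst3, -0.18 for Prdx3, -0.23 for Prdx6 and -0.28 for Prdx6-rs2. With spike-ins, the same genes were at -0.29, -0.45, -0.33, -0.54, -0.41, -0.35, -0.39 and -0.44, Prdx1 at -0.15 and Prdx4 at -0.072. Normexp with the 75th percentile gave 0.052 for Gpx7 and 0.11 for Gstm7, normexp with quantile scaling -0.015 and median scaling -0.040 for Gstt3. Without 1 array, Gpx8 ran from -0.12 to 0.32, Gstm7 ran from -0.31 to 0.018, Gstt3 ran from -0.18 to 0.20, Prdx2 ran from -0.10 to 0.090, Eef1g ran from -0.29 to 0.012, Sod1 ran from -0.13 to 0.12 and Sod2 ran from -0.056 to 0.022. The number of arrays limits the precision, and signal over background left 7 genes of the families untested.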
